A study of Homo sapiens with 4 samples.

Results

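The MAP kinase phosphatases measured here were the 10 dual-specificity phosphatase genes whose products bind MAP kinases through a docking domain, namely DUSP1, DUSP2, DUSP4, DUSP5, DUSP6, DUSP7, DUSP8, DUSP9, DUSP10 and DUSP16. Their probes were found through the RefSeq accession or gene symbol of the array annotation, which gave 12 probes in 21 spots on each array, of 34127 probes for 19740 named genes. DUSP8 had 3 probes and the other genes 1 each, and the DUSP1 probe was spotted 10 times. At least 1 probe of 8 of the 10 genes was well above background, by the scanner software's own mark, on all 4 arrays. DUSP2 and DUSP7 were not.

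The arrays were single-colour Agilent human V2 expression arrays, and the RNA came from Hs746T, an established gastric carcinoma cell line that carries both an exon-skipping mutation and an amplification of the receptor tyrosine kinase gene MET. All cells grew in DMEM with fetal bovine serum. The 4 groups were cells given the vehicle DMSO, cells given the MET inhibitor PHA665752, cells transfected with scrambled (sc) siRNA and cells transfected with a single MET siRNA. The siRNA groups were harvested 48 h after transfection, whereas how much PHA665752 was given before the array, and for how long, is not given in the sources used here. Each group was 1 array of 1 culture, so no value has an error between replicates, no test could be made, and precision is limited by the number of arrays. A lower signal from fewer expressing cells and one from less RNA per cell cannot be told apart.

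MAP kinases are switched on when a kinase phosphorylates both a threonine and a tyrosine in their activation loop, and the dual-specificity phosphatases switch them off by removing both phosphates. The family falls into inducible nuclear enzymes, cytoplasmic enzymes selective for ERK, and enzymes directed mainly at the stress kinases JNK and p38. Several of the genes are themselves switched on by ERK signalling, which makes them negative feedback regulators and commonly used readouts of the pathway downstream of receptors such as MET.

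MET itself, the check of the siRNA label, gave signals of 221452 on the DMSO array, 100492 after PHA665752, 190010 after sc siRNA and 77853 after MET siRNA. After scaling each array to its 75th percentile, the log2 ratio of MET was -1.33 for MET siRNA over sc siRNA and -0.93 for PHA665752 over DMSO. The transcript was therefore lower in both treated cultures, and past 2-fold only with the siRNA under this scaling. Its inhibitor ratio ran from -1.17 to -0.80 across the processing alternatives.

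The arrays shared 1 slide and held 43118 spots each. The MET siRNA array, on which every knockdown value rests, stood apart, with 61.1% of probes well above background against 67.4% to 68.2% on the others, and with 5.58% of spots marked as outliers against 1.69% to 2.21%. None was saturated. Spots of the same probe varied little within an array. Among probes above background and spotted 10 times, the median spot SD was 0.053 to 0.059 on the log2 scale. Counting only this median spot noise, a log2 ratio of single spots had an SD of 0.08 in the pair where it was largest. Single probes can vary more, and the DUSP1 spots had an SD of 0.097 on the DMSO array. The epithelial markers were above background (5 of 5 on the DMSO, PHA665752 and sc siRNA arrays, 4 of 5 with MET siRNA, where CDH1 was not), with summed signals of 40607.3, 27618.9, 32942.1 and 30356.4 in the order DMSO, PHA665752, sc siRNA and MET siRNA. Most of each sum was KRT18, whose log2 ratio with PHA665752 was -0.55, while EPCAM (0.54) and KRT8 (0.34) lay above 0. CDH1 was dim, at 33.0, 30.2, 13.1 and 10.4 in the same order. The mesenchymal markers ZEB1 (2790, 1449, 2247 and 1609) and CDH2 (4099, 4223, 3552 and 3942) were above background on all arrays. Of 4 listed gastric mucosa markers, 2 had a named probe with a usable value on all 4 arrays. Of these, TFF1 was above background at 60.5 to 87.6 and GKN1 was not on any array. Among the leukocyte markers PTPRC was above background at 22.7 to 37.8 and CD3E was not. The listed markers MUC5AC, CLDN18, VIM (mesenchymal) and LYZ (leukocyte) had no such probe and were not assessed. The endothelial marker PECAM1 gave 1846, 304, 1039 and 791 in the same order, with a log2 ratio of -2.39 for PHA665752. CDH5, the other endothelial marker, was dim at 88.5, 66.2, 65.5 and 63.5, with a log2 ratio of -0.205 for PHA665752. What part either has in the results below was not tested.

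With PHA665752, 3 of the 12 phosphatase probes were lower by more than 2-fold (DUSP6, DUSP4 and DUSP5) and 1 was higher (DUSP1), of 10 that gave a ratio or a bound. Across the array 7.43% of probes with a ratio were lower and 12.8% higher past 2-fold. With MET siRNA, of 9 probes with a ratio, 1 was lower past 2-fold (DUSP6), against 0.811% of all probes, and 0 were higher, against 2.12%. Between the control arrays, sc siRNA over DMSO, 0 of 11 phosphatase probes passed 2-fold in either direction, against 1.13% lower and 3.06% higher of all probes. The control pair shares the DMSO array with the inhibitor pair and the sc siRNA array with the knockdown pair.

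**Figure D1:**
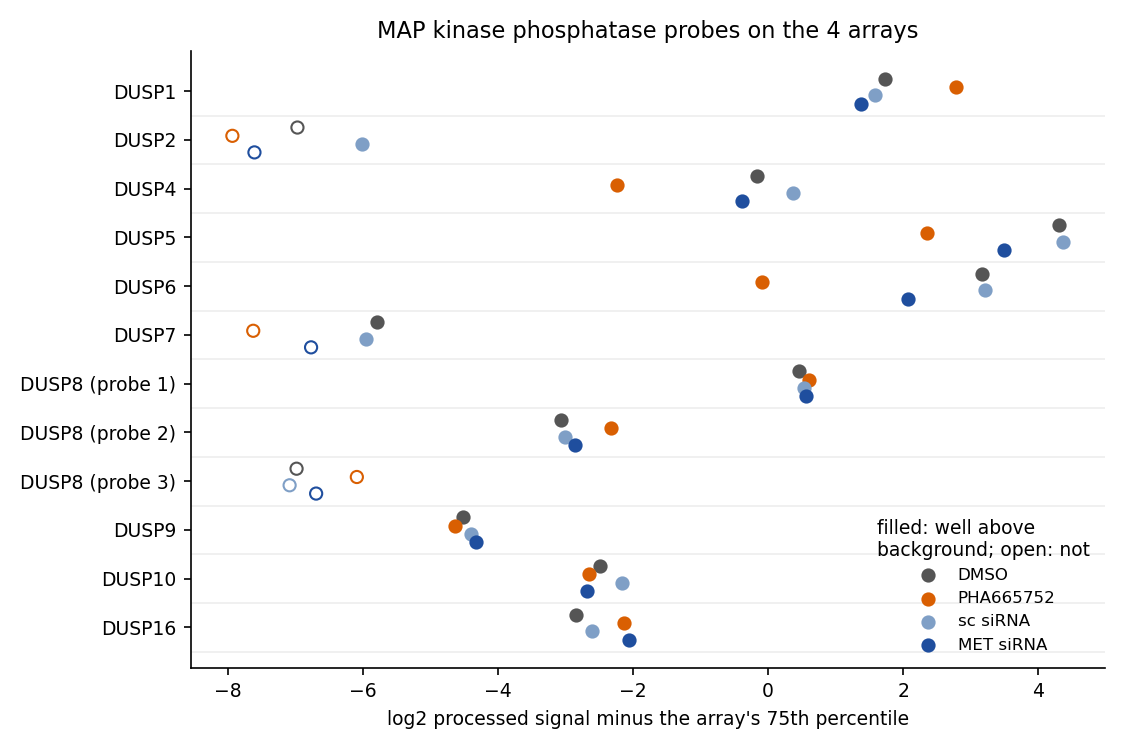
Scaled signal (log2 of the processed signal minus the array's 75th percentile) of the 12 phosphatase probes on the 4 arrays, with filled points for probes well above background and open points for the rest. Points are to be compared within a probe only, since the signal depends on the probe as well as on the RNA. DUSP6, DUSP4 and DUSP5 are lowest on the PHA665752 array, and DUSP1 is highest there.

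DUSP6, a cytoplasmic phosphatase selective for ERK and itself a classical ERK target, was the member that differed most. Its probe (A_23_P139704, NM_001946) gave signals of 8950 on the DMSO array, 802 after PHA665752, 7699 after sc siRNA and 3597 after MET siRNA. The control cultures lay close together, the knockdown culture below both and the inhibitor culture far below all others. DUSP6 fell 9.62-fold with PHA665752 (log2 ratio -3.27) and 2.21-fold with MET siRNA (log2 ratio -1.145), and its log2 ratio between the control arrays was 0.04. Ranked by size of fall among named genes with a ratio, it stood 44th of 14322 genes with PHA665752, within the lowest 0.307%, and 64th of 13647 genes with MET siRNA, within the lowest 0.469%. Its calls held under all the processing alternatives, with log2 ratios of -3.51 to -3.03 with PHA665752 and of -1.45 to -1.10 with MET siRNA.

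The 250 bases upstream of the DUSP6 start are shown because this member fell most and because ETS factors, which ERK phosphorylates, bind DNA at a short core. The sequence comes from RefSeq on GRCh38.p14 (chr12:89352502-89352751, minus strand), is printed 5′ to 3′, and has in capitals each match to the ETS core CGGAA on either strand.
DUSP6: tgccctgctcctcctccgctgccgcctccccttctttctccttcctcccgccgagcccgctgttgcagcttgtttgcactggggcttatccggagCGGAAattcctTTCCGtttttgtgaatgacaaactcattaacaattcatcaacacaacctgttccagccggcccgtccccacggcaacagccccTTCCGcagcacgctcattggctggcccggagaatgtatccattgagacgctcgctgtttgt
The window held 3 matches, from 155 to 61 bases upstream of the start. The same letters stood in 30.3% of all 35116 promoter windows of this length, so a match is common, and it describes the sequence without showing that any factor bound there.

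DUSP7 and DUSP9 are the other cytoplasmic ERK-directed members. DUSP7 (A_24_P51855, NM_001947) gave dim signals of 17.8 on the DMSO array, 4.32 after PHA665752, 13.3 after sc siRNA and 7.86 after MET siRNA, and was well above background on the DMSO and sc siRNA arrays only. It was therefore at least 1.24-fold lower with PHA665752 (log2 ratio at most -0.31). It gave no ratio with MET siRNA, since its sc siRNA signal lay under the lowest signal called above background on the MET siRNA array, 17.39. DUSP9 (A_24_P417189, NM_001395), which is best known from placenta and from stem cells, gave 43.1, 34.2, 39.5 and 42.9 in the order DMSO, PHA665752, sc siRNA and MET siRNA. Its log2 ratios were -0.12 for PHA665752 and 0.07 for MET siRNA, and these ran both ways across the processing alternatives, so no direction is given. Of the cytoplasmic group, DUSP6 alone had a measured ratio past 2-fold. For DUSP7 the bound with PHA665752 does not settle this, and without the filter on dim probes its log2 ratio was -1.83.

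**Figure D2:**
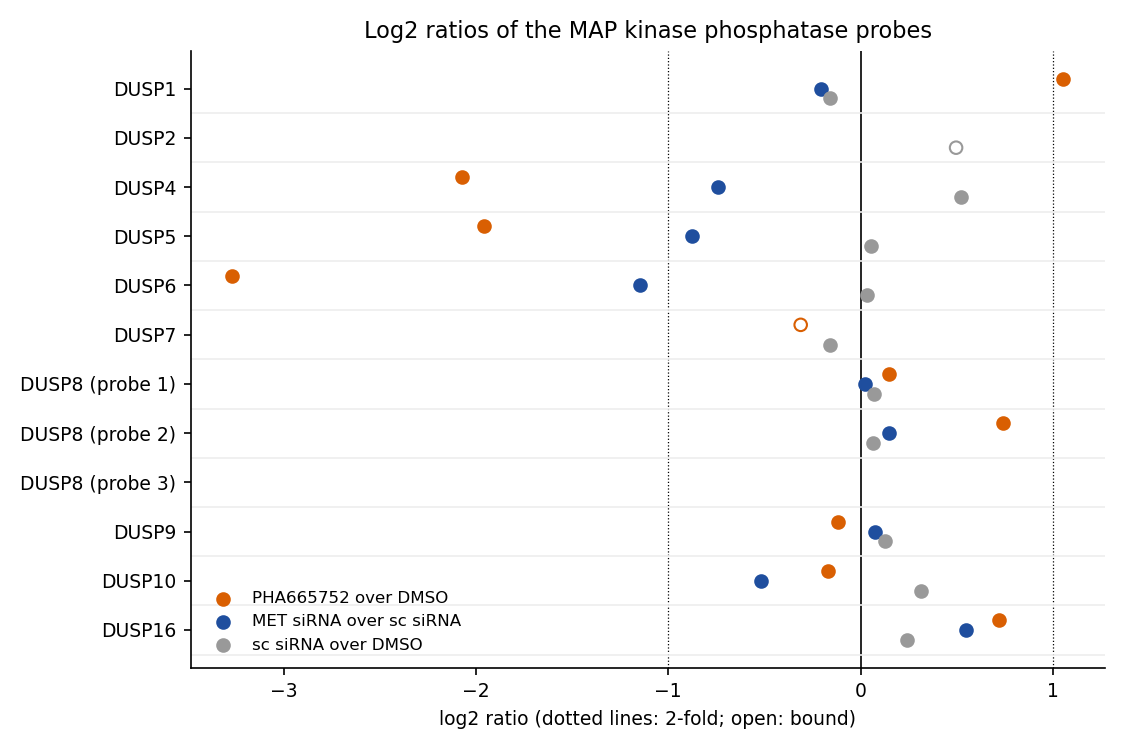
Log2 ratios of the phosphatase probes in the 3 pairs, PHA665752 over DMSO, MET siRNA over sc siRNA and sc siRNA over DMSO, with dotted lines at 2-fold and open points for bounds. DUSP6, DUSP4 and DUSP5 lie past the lower line with PHA665752 and DUSP6 with MET siRNA, while no probe passes a line between the controls.

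The inducible nuclear members divided. DUSP4 and DUSP5 were lower after both treatments, DUSP1 was higher with PHA665752 and not with MET siRNA, and DUSP2 was near background throughout.

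DUSP5, a nuclear phosphatase specific for ERK, gave signals of 19701 on the DMSO array, 4375 after PHA665752, 17198 after sc siRNA and 9689 after MET siRNA (A_23_P150018, NM_004419). Like DUSP6, it had similar control signals, an intermediate one after knockdown and the lowest after inhibition. It fell 3.88-fold with PHA665752 (log2 ratio -1.96), 273rd of 14322 genes by size of fall. With MET siRNA it was 1.83-fold lower (log2 ratio -0.88), short of 2-fold, yet 136th of 13647 genes, within the lowest 0.997%. The control ratio of DUSP5 was 0.06 on the log2 scale.

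DUSP4, another inducible nuclear member that acts on ERK as well as on stress kinases, gave signals of 884, 181, 1068 and 660 in the order DMSO, PHA665752, sc siRNA and MET siRNA (A_23_P134935, NM_001394). It fell 4.20-fold with PHA665752 (log2 ratio -2.07), 230th of 14322 genes. With MET siRNA it was 1.67-fold lower than with sc siRNA (log2 ratio -0.74), 217th of 13647 genes. The control arrays differed by 0.53 for DUSP4, with sc siRNA above DMSO, which was more than for DUSP5 or DUSP6. Set against DMSO in place of sc siRNA, the MET siRNA array gave a log2 ratio of -0.22 for DUSP4, against -0.82 for DUSP5 and -1.11 for DUSP6, so the lower DUSP4 signal after knockdown depended on the control used.

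On the log2 scale the knockdown difference was 35.1% of the inhibitor difference for DUSP6, 35.8% for DUSP4 and 44.7% for DUSP5. Scaling every array to the median of its probes above background moved the median of all named genes in the knockdown pair from -0.017 to -0.31, since it shifts every ratio of a pair by the same amount. Under it DUSP4 (-1.04) and DUSP5 (-1.18) also passed 2-fold with MET siRNA.

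**Figure D3:**
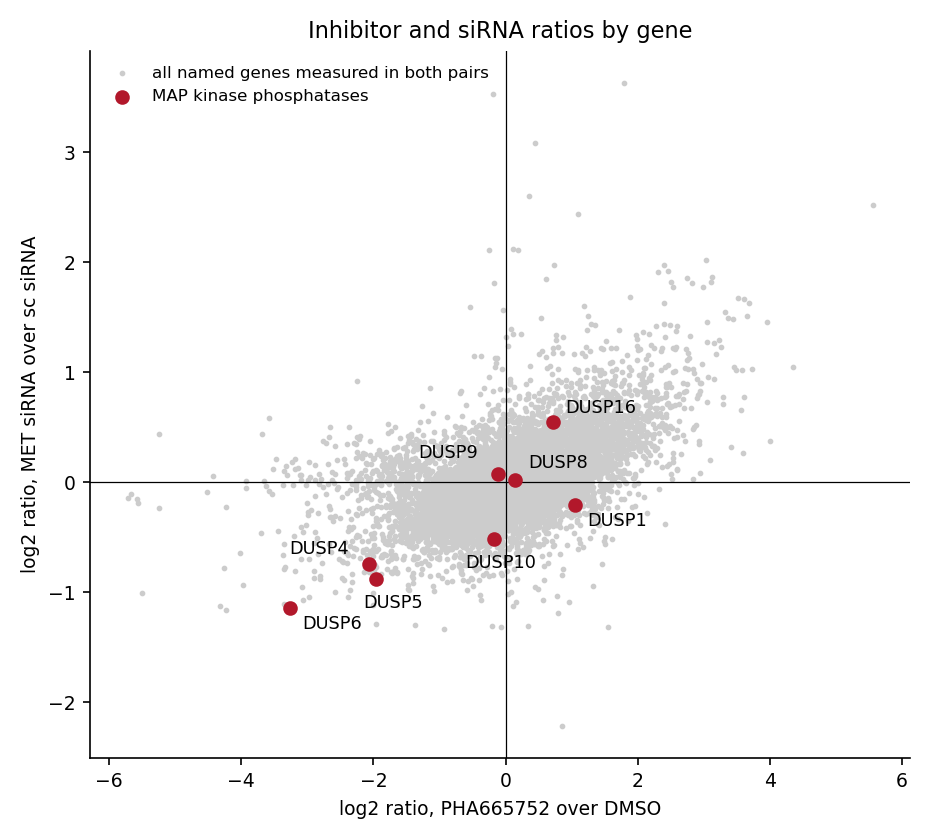
Log2 ratio with MET siRNA (vertical axis) against that with PHA665752 (horizontal axis) for the members measured in both pairs, over all 13074 named genes well above background on all arrays in grey. DUSP6, DUSP5 and DUSP4 lie low on both axes, DUSP16 lies above 0 on both, and DUSP1 lies at 1.05 on the horizontal axis and below 0 on the vertical one.

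DUSP1, the immediate-early nuclear phosphatase with a preference for p38 and JNK, went the other way with the inhibitor. The median signals of its 10 spots (A_23_P110712, NM_004417) were 3357.3 on the DMSO array, 5893.7 after PHA665752, 2460.1 after sc siRNA and 2247.3 after MET siRNA. The PHA665752 spots, from 5616.1 to 6224.8, all lay above the DMSO spots, from 2944.1 to 3704.1. After scaling, the log2 values of the spots ran from 2.72 to 2.87 with PHA665752, from 1.57 to 1.90 with DMSO, from 1.51 to 1.71 with sc siRNA and from 1.23 to 1.48 with MET siRNA, so both treated arrays were separate from their own controls while the control arrays overlapped. Before scaling, the sc siRNA spots (from 2367.5) and the MET siRNA spots (up to 2389.1) overlapped. The spots of an array share 1 labelled RNA, so they show technical spread only and are not replicates of the culture.

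DUSP1 rose 2.08-fold with PHA665752 (log2 ratio 1.05), close to the limit and 1739th of 14322 genes by size of rise, within the highest 12.1%, which is near the 13.1% of all named genes that were higher past 2-fold. It was no longer past 2-fold when arrays were scaled to their 50th percentile (0.81) or to the median of the probes above background (0.96). The 50th percentile moved the median of all named genes in that pair from 0.075 to -0.17. With MET siRNA, DUSP1 was 1.15-fold lower (log2 ratio -0.20), and its control ratio was -0.16. The difference between the inhibitor and knockdown ratios could not be tested with single arrays.

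**Figure D4:**
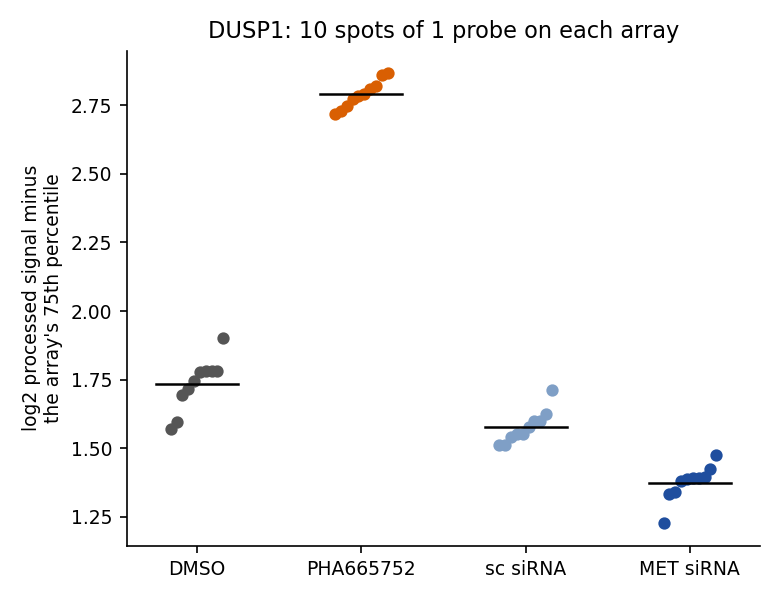
Scaled log2 signal of each of the 10 DUSP1 spots on the 4 arrays, sorted by value, with a bar at the mean. The spots of the PHA665752 array lie between 2.72 and 2.87, above all others, and those of the MET siRNA array between 1.23 and 1.48, below all others.

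The DUSP1 window is shown as the contrast to that of DUSP6. DUSP1 is a known target of CREB and ATF factors, which bind the cyclic AMP response element, and its 250 bases upstream (RefSeq, GRCh38.p14, chr5:172771196-172771445, minus strand, 5′ to 3′) carry the full palindrome TGACGTCA, in capitals.
DUSP1: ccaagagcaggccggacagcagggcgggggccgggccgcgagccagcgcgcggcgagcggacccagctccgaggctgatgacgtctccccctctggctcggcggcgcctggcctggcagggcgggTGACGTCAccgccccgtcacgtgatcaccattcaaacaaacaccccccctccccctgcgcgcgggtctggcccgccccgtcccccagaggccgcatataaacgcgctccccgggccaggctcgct
The match lies 125 bases upstream of the start, and these letters were found in 1.65% of all promoter windows. Of the 10 members 8 had a window, DUSP4 and DUSP5 being those without one. Among these 8, DUSP8 also held the palindrome, 2 times, and single ETS core matches stood in DUSP8 and DUSP16. The AP-1 letters TGANTCA, searched on both strands like the others, stood in none of the 8 members searched and in 6.57% of all windows. Whether any of these matches bears on the ratios was not tested.

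DUSP2, a nuclear phosphatase known mainly from activated lymphocytes, gave signals of 7.88 on the DMSO array, 3.48 after PHA665752, 12.84 after sc siRNA and 4.39 after MET siRNA (A_24_P37409, NM_004418). Only the sc siRNA signal was well above background. It gave no ratio in either treated pair and was at least 1.41-fold higher with sc siRNA than with DMSO (log2 ratio at least 0.50).

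The members directed at JNK and p38 stayed within 2-fold in all pairs, for the probes that gave a ratio. Most named genes did so too. Of all named genes, 8.04% were lower and 13.1% higher past 2-fold with PHA665752. The shares were 0.696% and 2.04% with MET siRNA, and 1.16% and 2.89% between the controls. DUSP16, which acts chiefly on JNK, was higher after both treatments. Its signals were 137 on the DMSO array, 194 after PHA665752, 136 after sc siRNA and 206 after MET siRNA (A_24_P189739, NM_030640). Both control signals lay together below both treated ones. The ratios were 1.65-fold with PHA665752 (log2 0.72) and 1.46-fold with MET siRNA (log2 0.55), neither past 2-fold, with 0.24 between the controls. Across the processing alternatives the DUSP16 log2 ratio stayed above 0, from 0.47 to 0.72 with PHA665752 and from 0.25 to 0.57 with MET siRNA.

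DUSP10, which acts on p38 and JNK, gave 177, 135, 185 and 133 in the order DMSO, PHA665752, sc siRNA and MET siRNA (A_24_P182494, NM_007207). Its log2 ratio was -0.17 for PHA665752 and -0.52 for MET siRNA, against 0.32 between the controls. Against DMSO the MET siRNA array gave -0.20, so here too the size of the knockdown difference hung on the control array.

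DUSP8, a stress-kinase phosphatase described mostly in brain and heart, had probes that did not give the same value. The probe that stood for the gene (A_33_P3359012, NM_004420) gave 1364, 1304, 1202 and 1260 in the same array order. Its log2 ratios were 0.15 for PHA665752 and 0.02 for MET siRNA, whose signs turned with the scaling. Another (A_32_P98298) gave 118.2, 170.5, 103.6 and 118.4 and log2 ratios of 0.74 (1.67-fold) and 0.15. The last (A_33_P3263625), at 6.10 to 12.5, was well above background on no array. The inhibitor ratio of DUSP8 thus depended on the probe, and the probe sequences were not used here.

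Taken 1 probe per gene, 9 members had a ratio with PHA665752, with a median log2 ratio of -0.17 against 0.075 for all named genes. There were 3 lower and 1 higher past 2-fold, against 8.04% and 13.1% of all named genes. With MET siRNA, 8 members had a ratio, with a median of -0.36 against -0.02, 1 lower against 0.696%, and 0 higher against 2.04%. The median of 10 members between the controls was 0.10 against -0.01. Of 1043 named genes that were lower past 2-fold with PHA665752 and measured in both pairs, 757 (72.6%) were below 0 with MET siRNA, which included DUSP4, DUSP5 and DUSP6, and 12 (1.15%) were lower past 2-fold there too, DUSP6 among them. Of 1467 genes higher past 2-fold with PHA665752, 166 (11.3%) were below 0 with MET siRNA, DUSP1 among them. Of all 13647 named genes with a knockdown ratio, 7231 were below 0.

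The genes whose profile over the 4 arrays lay nearest to that of DUSP6 were CCL20, EPHA2, G0S2, FOSL1 and ESM1, by Euclidean distance between mean-centred log2 values over 13073 genes. Their distances ran from 0.22 (CCL20) to 0.31 (ESM1), their inhibitor log2 ratios from -3.36 to -2.98 and their knockdown log2 ratios from -1.10 to -0.77. CCL20 encodes a chemokine, EPHA2 a receptor tyrosine kinase, FOSL1 an AP-1 subunit, G0S2 an inhibitor of lipolysis and ESM1 a secreted proteoglycan. Among the other members, DUSP4 was 75th by this distance, DUSP5 131st and DUSP1 11958th. With 4 points, 1 per culture, this likeness mostly restates the inhibitor and knockdown ratios.

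The lists of genes around the phosphatases place these values. Of 15 atypical dual-specificity phosphatases, which lack the MAP kinase docking domain, 12 had a ratio with PHA665752. Of these 0 passed 2-fold in either direction (median log2 ratio 0.07), against 8.04% lower and 13.1% higher of all named genes. With MET siRNA 0 passed either (median 0.06), against 0.696% and 2.04%. Of 8 other phosphatases that act on MAP kinases 6 had a ratio and 0 passed 2-fold in either treated pair (medians -0.20 and 0.03), beside the same shares. Among the phosphatase genes with a measured ratio, those past 2-fold with PHA665752 were DUSP1, DUSP4, DUSP5 and DUSP6.

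The kinases upstream of the phosphatases gave few calls, and lists this short would give few at the shares of all named genes. Those shares were 8.04% lower and 13.1% higher with PHA665752, and 0.696% and 2.04% with MET siRNA. All 19 genes of the RAS-ERK cascade list had a ratio with PHA665752, and 1 was lower past 2-fold, MAP2K1, which encodes the ERK kinase MEK1 (log2 ratio -1.29, and -0.44 with MET siRNA), and 0 were higher (median -0.02). With MET siRNA 0 passed 2-fold (median 0.00). Of 22 JNK, p38 and ERK5 cascade genes, 19 had a ratio with PHA665752, of which MAP3K5 (-1.46, and -0.39 with MET siRNA) and MAPK13 (-1.34 and -0.74) fell and MAPK11 (1.15 and 0.21) rose, with a median of -0.14. MAPK13 was short of 2-fold after normexp background correction (-0.77) and MAPK11 with the 50th percentile (0.91). MAP3K5 encodes the stress-activated kinase ASK1, and MAPK13 and MAPK11 encode forms of p38. With MET siRNA 0 of this list passed 2-fold (median -0.09).

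Known ERK output genes other than the phosphatases held genes lower and genes higher past 2-fold with PHA665752. With PHA665752, of 22 genes 19 had a ratio, 11 were lower and 5 higher past 2-fold, against 8.04% and 13.1% of all named genes, and the median log2 ratio was -1.28. Those lower included the feedback inhibitors SPRY4 (-4.24), SPRED2 (-1.36) and SPRY2 (-1.28), the ETS factors ETV5 (-3.37), ETV4 (at most -3.07) and ETV1 (-1.68), the AP-1 subunit FOSL1 (-3.36) and the receptors EPHA2 (-3.36) and EPHA4 (-1.21). PHLDA1 (-2.26) and the cyclin gene CCND1 (-1.62) were lower as well. SPRED2 was short of 2-fold after normexp (-0.95). The transcription factor gene MYC (-0.60), SPRED1 (-0.58) and IER3 (0.78) stayed within 2-fold. With MET siRNA 2 were lower past 2-fold, SPRY4 (-1.16) and EPHA2 (-1.10), and 0 were higher, with a median of -0.51. That count of 2 became 0 after normexp (SPRY4 -0.93, EPHA2 -0.90) and 4 with scaling to the median of the probes above background. Those lower past 2-fold with PHA665752 all had log2 ratios below 0 with MET siRNA, from -1.16 to -0.21, like DUSP4, DUSP5 and DUSP6. Among all named genes that were lower past 2-fold with PHA665752 and measured in both pairs, 72.6% were below 0 with MET siRNA.

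The 5 output genes that rose with PHA665752, as DUSP1 did, were all immediate-early transcription factor genes, namely EGR1 (2.95), FOS (1.96), FOSB (1.91), EGR2 (1.25) and JUNB (1.16). EGR2 and JUNB fell short of 2-fold, leaving 3, with the 50th percentile (EGR2 0.998, JUNB 0.92) and after normexp (EGR2 0.86, JUNB 0.97). With MET siRNA none of them passed 2-fold, and their log2 ratios ran from -0.01 for EGR2 to 0.44 for FOSB. Between the control arrays FOS gave -1.33, FOSB -1.66, JUNB -0.96, EGR1 0.84 and EGR2 1.36, so FOS, FOSB and EGR2 also differed past 2-fold between the control arrays, EGR2 not after normexp (0.93). DUSP1, at -0.16, was within 2-fold there.

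Stress and p53 genes, some of which can be switched on by JNK and p38, lay mostly above 0 with the inhibitor. Of 11 such genes 10 had a ratio with PHA665752, 5 were higher past 2-fold, against 13.1% of all named genes, and 0 lower, against 8.04%, with a median of 0.99. These were ATF3 (3.61), TP53INP1 (2.09), HMOX1 (1.50), GADD45A (1.26) and GADD45B (1.05), of which GADD45B was short of 2-fold under 3 alternatives (0.80 to 0.98). Of the 10 with a ratio, 8 lay above 0 and 2 below it, CDKN1A (-0.95) and MDM2 (-0.28). Of all 14322 named genes with a ratio in this pair, 7863 lay above 0. In the list 1 gene was lower past 2-fold with the 50th percentile, quantile normalization or the median of the probes above background. With MET siRNA 1 was higher past 2-fold, ATF3 (1.67), against 2.04%, and 0 lower, against 0.696% (median 0.28, and -0.02 with that last scaling), and between the controls 3 were higher, with a median of 0.37, against 2.89% of all named genes. ATF3 (1.15) and HMOX1 (2.01) were among those 3.

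**Figure D5:**
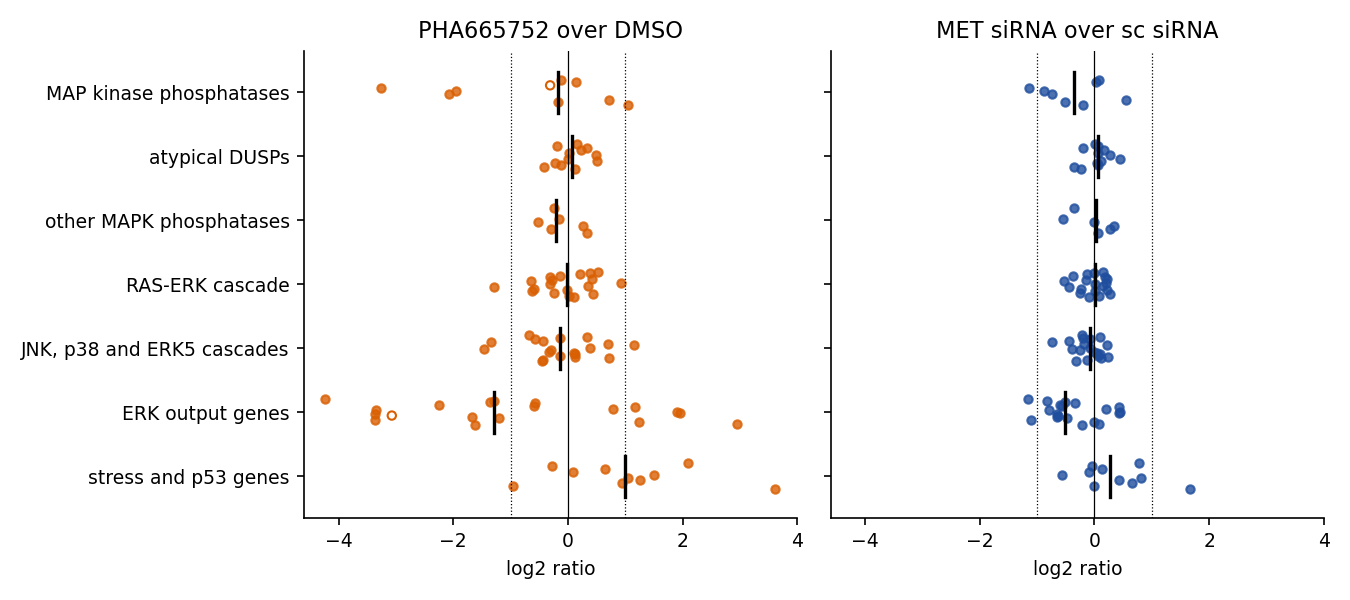
Log2 ratios of the members and of the 6 gene lists with PHA665752 over DMSO and with MET siRNA over sc siRNA, 1 point per gene, with a bar at the median, dotted lines at 2-fold and open points for bounds. The ERK output genes spread widest with PHA665752, from SPRY4 at -4.24 to EGR1 at 2.95, and the atypical phosphatases stay within 2-fold in both pairs.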

How the data were processed

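The authors deposited the Agilent scanner output, made with Feature Extraction 11.5.1.1 per the file headers, whose processed signal is a linear intensity after background subtraction, not normalized between arrays. Its marks for background, outliers and saturation were used as deposited, and the series matrix as an alternative. Outlier spots were left out, spots of a probe averaged on the log2 scale, and each array's 75th percentile subtracted. A probe counted as above background when no fewer of its spots carried that mark than lacked it. A probe above background on 1 array of a pair gave a bound against the lowest signal called above background on the other, and on neither, no ratio. Called means past 2-fold. The probe with the highest mean scaled signal stood for its gene. Names came from RefSeq accessions (GRCh38.p14, names only, 75.5% of probes). The members and lists were chosen with earlier results of these data known. Named were all members, MET, list genes past 2-fold in a treated pair and the 5 genes nearest to DUSP6. Marker genes, CDKN1A, MDM2, MYC, SPRED1 and IER3 were named outside that rule, after their values were seen.

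Of 9 alternatives, 8 were listed at the outset and 1, scaling to the median of probes above background, was added after seeing the data. The ratio and bound rules were run on simulated arrays for the inhibitor pair, with planted changes past 2-fold in bright probes only. The same background limit was used on each simulated array, so the higher limit of the MET siRNA array was not covered. Python 3.11.15, numpy 2.4.6, pandas 2.3.3, matplotlib 3.10.9, R 4.3.3 and limma 3.58.1 (normexp with offset 50, and quantile normalization) were used.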

Additional observations from a re-analysis of the deposited data

Results flagged for a closer look

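DUSP1 stood out because its ratio differed in direction between the inhibitor and the knockdown, with a log2 ratio of 1.05 for PHA665752 over DMSO and of -0.20 for MET siRNA over sc siRNA. The difference was not tested, since each group was 1 array. The knockdown ratio was close in size to the DUSP1 ratio between the control arrays, -0.16. Of the genes higher past 2-fold with PHA665752, 11.3% were below 0 with MET siRNA. Of all 13647 named genes with a knockdown ratio, 7231 were below 0.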

How the results depend on the processing

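No paired analysis was possible because each group was 1 array, and no replicate could be left out. Under all 8 alternatives run on single probes, DUSP4, DUSP5 and DUSP6 were lower past 2-fold with PHA665752. Under the same alternatives DUSP1, DUSP4, DUSP5, DUSP6, DUSP10 and DUSP16 kept their sign in both treated pairs, though DUSP10 came to -0.04 with PHA665752. The count of 3 lower probes became 4 without a filter on dim probes (DUSP7, -1.83). The count of 1 higher probe became 0 with the 50th percentile and 0 with scaling to the median of probes above background. The count of 1 lower probe with MET siRNA became 2 without a filter on dim probes (DUSP2, -1.59) and 3 with the scaling to that median. The median over members moved with PHA665752 from -0.17 to -0.42 (50th percentile), -0.57 (no filter) and -0.44 (quantile), and to -0.04 after normexp, and with MET siRNA from -0.36 to -0.63 (no filter) and -0.66 (scaling to the median above background). The no-filter values add dim probes, and the 50th percentile and median scalings shift each ratio of a pair by 1 amount. For the quantile value the cause was not tested. Signal over background limited DUSP2, DUSP7 and 1 DUSP8 probe.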
